A study of Mus musculus with 12 samples.

Results

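The Zfp genes described here are the 54 mouse transcripts whose gene name is Zfp followed by a digit, out of 20561 transcripts counted by RNA-seq and Ribo-seq in Eμ-Myc/+ lymphomas with and without Prps2. The deposited count table holds transcript identifiers alone, so the names come mainly from the study's own supplemental lists, which name 2634 of its transcripts and were read only in part. Of the 54, 6 stood in the list of transcripts raised in RNA and in footprints, 42 in the list of transcripts with a raised translation efficiency (TE, footprints per RNA), and 18 in a list of 5′ UTR sequences, of which 12 were also among the 42. A reference list of mouse gene names holds 416 Zfp symbols, so the members were 13% of them, and they are the Zfp genes that the lists picked up. Because the lists were made from the difference between the genotypes, and the rows read from the 5′ UTR list were themselves chosen for raised TE, each difference between genotypes in RNA, footprints and TE below is a description of the chosen genes and carries no p-value. The footprint to RNA ratio averaged over both genotypes was not itself a criterion of that choice and was tested. The lists need not be neutral for it: other names of the raised TE list had a median log2 ratio 0.26 above that of all transcripts.

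Eμ-Myc/+ mice carry a Myc transgene under the immunoglobulin heavy chain enhancer, which drives Myc in B cells, and develop B cell lymphoma. Eμ-Myc/+ Prps2null lymphomas carry the same transgene and lack Prps2, an enzyme that makes the ribose donor for nucleotides. By the labels, stored lymphoma cells were injected into the tail vein of male C57BL/6 mice 8 weeks of age, which received no treatment and kept their own immune system and stroma, and B cells were then purified from lymph nodes with a kit. The study's methods for these libraries speak instead of cells taken from tumor-bearing mice of the 2 genotypes, so whether the lymphomas were primary or grafted is not settled here. There were 3 lymphomas of each genotype, each with an RNA-seq and a Ribo-seq library, 12 libraries in all, labelled as biological replicates. Values per library are given as CPM, counts scaled to a common library size within each assay, in the order of replicates 1, 2 and 3, first for the Eμ-Myc/+ and then for the Eμ-Myc/+ Prps2null lymphomas, and log2 fold changes are Prps2null over Eμ-Myc/+ with a standard error (SE).

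Most Zfp genes encode proteins with a string of zinc fingers, small zinc-holding folds that each contact a short stretch of DNA, so that a row of fingers reads a long site. Many also carry a KRAB domain, which recruits the co-repressor Trim28 and with it histone and chromatin modifiers, and this family is best known for silencing retrotransposons. Its genes arose by repeated duplication and lie in clusters of near relatives. The symbol also covers proteins of other kinds, such as Zfp622, which acts in maturation of the large ribosomal subunit, and Zfp346, which binds double-stranded RNA.

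The targeted gene was checked first. Prps2 RNA stood between 61.3 and 68.8 CPM in the Eμ-Myc/+ lymphomas and between 7.51 and 10.3 CPM in the Prps2null lymphomas. Prps2 footprints were at 163, 133 and 7.92 CPM against 5.05, 140 and 9.44 CPM, so the Ribo-seq library labelled Eμ-Myc/+ replicate 3 and the one labelled Prps2null replicate 2 go against their labels. The libraries stayed in the groups of their labels, and the counts and medians that use footprints are given with and without these 2 libraries, as are the fitted values of most members named for them. Among the 46 members with enough footprints to test, 42 (91.3%) were nearer in the first of these libraries to the mean of the other label's remaining libraries and 32 (69.6%) in the second, against 81.5% and 69.4% of all 9031 transcripts.

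RNA-seq libraries held 4135908 to 6648829 counts and Ribo-seq libraries 975023 to 2792929. The median member had 57 to 136.5 counts in an RNA-seq library but 18 to 48 in a Ribo-seq library, where 2 to 15 of the 54 members had fewer than 10 counts. A count of 0 allows up to 0.489 to 0.732 CPM in RNA-seq and 1.03 to 3.09 CPM in Ribo-seq, from counting error only. Together the members took 0.186% to 0.204% of the RNA-seq counts in the Eμ-Myc/+ and 0.111% to 0.137% in the Prps2null lymphomas. Of the footprints they took 0.196%, 0.183% and 0.151% against 0.150%, 0.201% and 0.140%.

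Summed markers of several cell types differed between the genotypes in RNA. Of 12 listed B cell markers 6 could be named, and their summed RNA was 2293 to 3497 CPM in the Eμ-Myc/+ and 360 to 774 CPM in the Prps2null lymphomas, with footprints of 3272, 3127 and 1448 CPM against 1800, 2795 and 1645 CPM. Cd74 and H2-Aa made up most of that difference, while Ms4a1 RNA was higher in Prps2null, 8.79, 6.35 and 8.56 CPM against 47.5, 68.1 and 84.9 CPM, and Fcmr overlapped between the groups. The 7 named of 10 myeloid markers summed to 142 to 150 against 77.0 to 95.4 CPM in RNA, the 3 named of 6 stromal markers to 53.4 to 116 against 10.6 to 23.1 CPM, and the 2 named of 12 T and NK cell markers to 32.6 to 42.6 against 19.0 to 22.2 CPM. Myeloid RNA followed Ctss. At lower levels, Cd68, C1qb and C1qc RNA was also lower in every Prps2null library without overlap, while Csf1r, Mrc1 and Lyz2 overlapped. The RNA of the T and NK cell markers followed Lck, and Tcf7 overlapped. Footprints ran otherwise, with 297, 335 and 417 CPM against 345, 430 and 499 CPM for the myeloid and 70.9, 237 and 78.5 CPM against 41.6, 560 and 135 CPM for the stromal markers. Those of the T and NK cell markers were at 47.3, 36.4 and 28.6 CPM against 27, 49.5 and 28.3 CPM. No named marker of any list was at 0 in RNA-seq. These markers were named through the same lists, and their part in the Zfp values was not tested. In bulk samples fewer cells of a type and less RNA per cell cannot be told apart.

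In RNA, the chosen Zfp genes were mostly lower in Prps2null lymphomas. The log2 fold change was below 0 for 47 of the 54 members and above 0 for 7, with a median of -0.85 against 0.08 over all 14682 transcripts tested. By edgeR's quasi-likelihood test over the whole table at an adjusted p under 0.05, 34 members were lower and 5 higher, where 18.5% of all transcripts were lower and 14.7% higher. The groups did not overlap for 42 members that were lower in Prps2null and for 7 that were higher, where 26.2% and 23.5% of all transcripts were so placed. The lists fixed these directions: all 6 members of the list raised at both levels lay above 0, and 41 of the 42 of the raised TE list (Zfp992 excepted) and all 18 of the 5′ UTR list lay below. Scaling to library totals moved the median of all transcripts to 0.37 and left 24 members lower and 7 higher. Of all 14682 transcripts 1668 were then lower and 3851 higher.

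**Figure D1:**
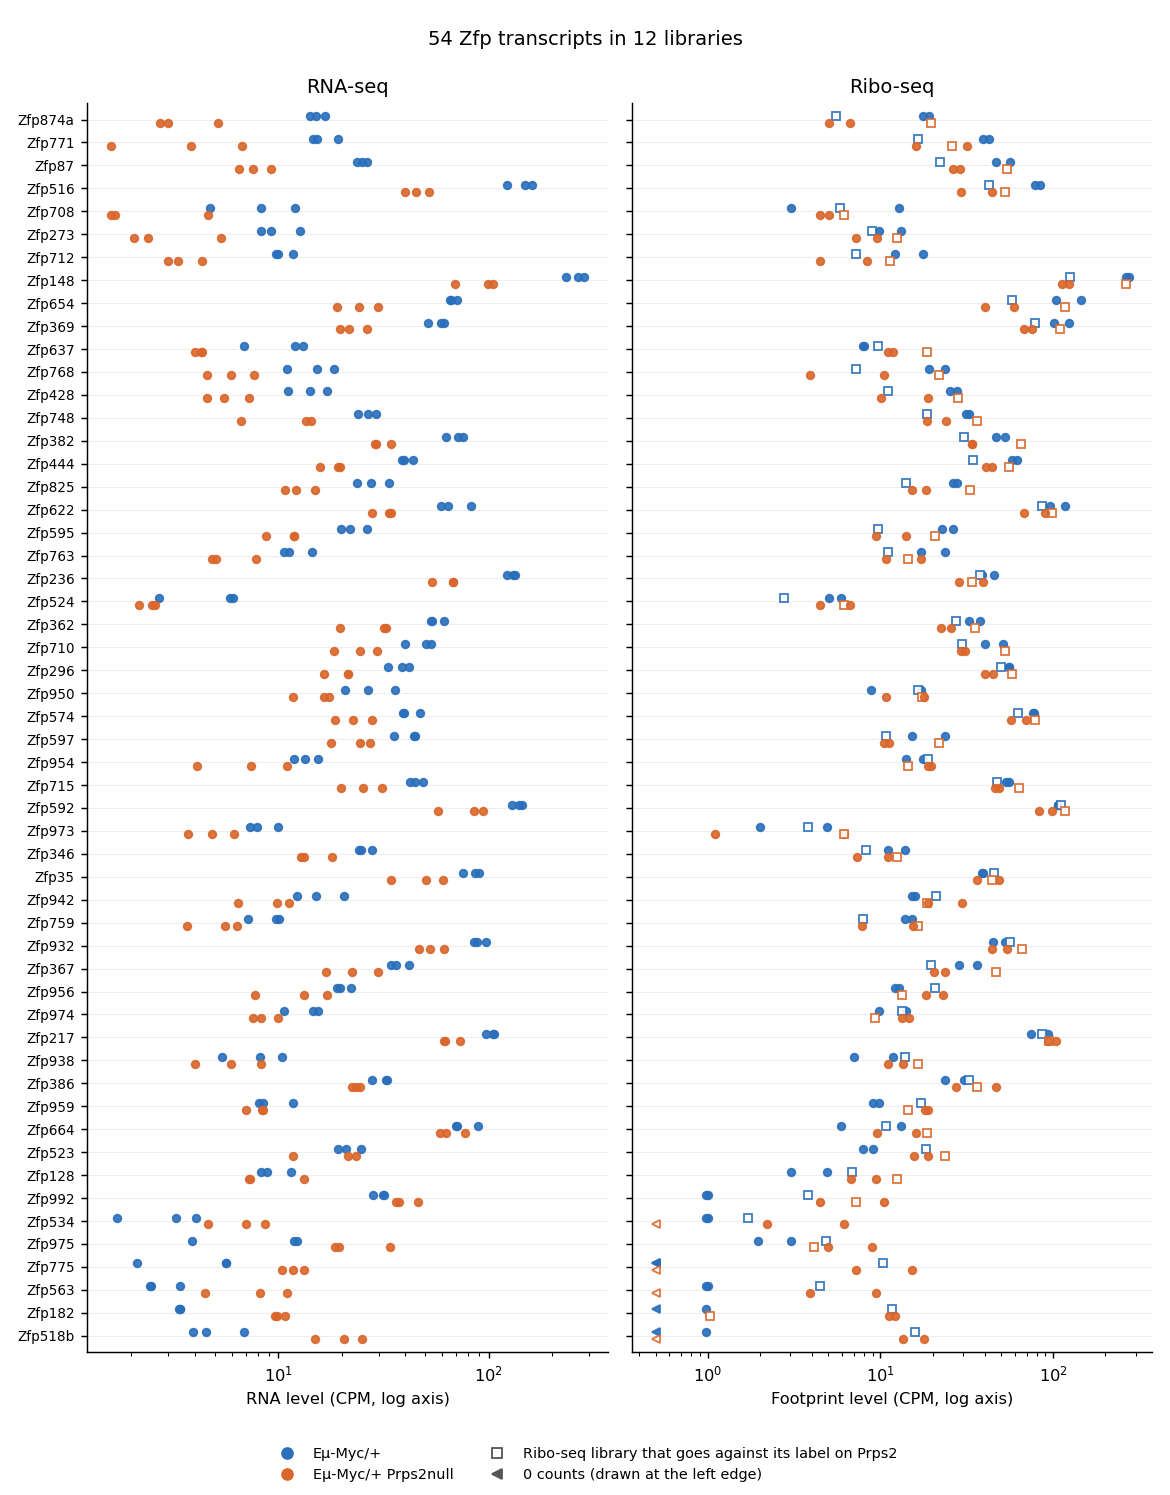
RNA levels (left) and footprint levels (right) of the 54 Zfp transcripts in each library, in CPM on log axes, ordered from the lowest RNA log2 fold change at the top. Blue points are Eμ-Myc/+ and orange points Eμ-Myc/+ Prps2null lymphomas, open squares are the 2 Ribo-seq libraries that go against their labels on Prps2, and triangles mark 0 counts, open where the library is one of those 2. The RNA groups stand apart for most members, while footprints of the Eμ-Myc/+ square often lie beside the orange points and those of the Prps2null square beside the blue ones.

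The largest RNA difference among the falls was that of Zfp874a, a KRAB zinc finger gene of a chromosome 13 cluster described below. Its RNA was at 16.6, 14.2 and 15.1 CPM against 2.74, 5.17 and 2.97 CPM and its log2 fold change was -2.04 ± 0.33. Zfp771 (chr7:127242996-127254872) had 19.3, 15.3 and 14.6 CPM against 1.6, 3.84 and 6.68 CPM of RNA, a log2 fold change of -1.99 ± 0.38. In both genes every Prps2null library lay below every Eμ-Myc/+ library, and in the least covered Prps2null library Zfp771 rested on 7 counts. Zfp87 RNA was at 24.9, 23.6 and 26.4 CPM against 7.54, 9.18 and 6.49 CPM, and its log2 fold change was -1.68 ± 0.24. Zfp516, known for its part in the brown fat program, had 149, 122 and 161 CPM against 40.2, 52.1 and 45.1 CPM of RNA and a log2 fold change of -1.65 ± 0.19. For Zfp708, which binds a class of retrotransposon, RNA was at 12, 8.31 and 4.73 CPM against 1.6, 1.67 and 4.64 CPM and the log2 fold change was -1.64 ± 0.49. The groups of these 3 genes did not overlap either, although the lowest Eμ-Myc/+ and the highest Prps2null library of Zfp708 all but touched.

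Zfp148 (chr16:33380775-33503903), a GC-box binding factor also called ZBP-89, had 265, 233 and 285 CPM against 69, 99.8 and 105 CPM of RNA and a log2 fold change of -1.52 ± 0.21. Zfp217 (chr2:170108643-170151677), whose human counterpart is amplified in breast cancer, had 105, 97.4 and 106 CPM against 61.5, 61.9 and 73.1 CPM and a smaller log2 fold change of -0.65 ± 0.18. Zfp592 RNA was at 144, 140 and 129 CPM against 57.1, 94.4 and 85.1 CPM, with a log2 fold change of -0.80 ± 0.20. Each of the 3 had at least 250 counts in every RNA-seq library, and in none did the groups overlap. Zfp296, a factor of pluripotent and germ cells, had 42, 38.8 and 33.1 CPM against 16.4, 21.4 and 21.5 CPM of RNA and a log2 fold change of -0.94 ± 0.21. Zfp367 had 34.4, 36.3 and 41.7 CPM against 29.7, 16.9 and 22.3 CPM, and its log2 fold change was -0.72 ± 0.22. For Zfp710 the levels were 50.5, 40.2 and 53 CPM against 18.3, 24.5 and 29.5 CPM and the log2 fold change -0.98 ± 0.22. The Prps2null libraries of these 3 genes also all lay below the Eμ-Myc/+ ones, and for Zfp367 the highest of them came within a few CPM.

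Zfp574 RNA was at 39, 46.9 and 39.4 CPM against 18.5, 22.7 and 27.8 CPM, a log2 fold change of -0.86 ± 0.21. Zfp768 had 11, 15.3 and 18.3 CPM against 4.57, 7.67 and 5.93 CPM and a log2 fold change of -1.28 ± 0.31. For Zfp637 RNA was at 12, 6.84 and 13.1 CPM against 4.34, 4 and 4.27 CPM, and the log2 fold change was -1.32 ± 0.36. Prps2null lymphomas were lower in every library for these 3 genes. The KRAB gene Zfp382 had 62.5, 71.3 and 75.3 CPM against 29.2, 28.9 and 34.5 CPM of RNA and a log2 fold change of -1.17 ± 0.19, again without overlap. Zfp932, a KRAB protein that binds endogenous retroviruses, had 85.2, 88.1 and 97.1 CPM against 46.8, 52.4 and 61.4 CPM and a log2 fold change of -0.75 ± 0.18. Zfp622 RNA was at 82.7, 64.2 and 59.3 CPM against 27.9, 33.4 and 34.5 CPM, with a log2 fold change of -1.10 ± 0.20, and the RNA-binding Zfp346 was at 27.8, 24.6 and 24.3 CPM against 12.8, 13.3 and 18 CPM, with -0.79 ± 0.22. Of the members named in the 5′ UTR list alone, Zfp763 had 11.2, 14.5 and 10.6 CPM against 5.03, 4.84 and 7.79 CPM, a log2 fold change of -1.04 ± 0.31. Zfp597 RNA was at 44.7, 35.3 and 44.2 CPM against 27.2, 24.5 and 17.8 CPM, and its log2 fold change was -0.84 ± 0.21. Zfp974 had 14.6, 15.5 and 10.6 CPM against 8.22, 10 and 7.6 CPM and -0.65 ± 0.28. With Zfp346, Zfp592 and Zfp595 they made 6 genes, all without overlap, of which 5 passed the threshold. Of all transcripts 26.2% were lower without overlap and 18.5% passed as lower, and the 5′ UTR list fixed this direction.

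For 5 members the RNA groups overlapped. Zfp523, related to the transcription activator Zfp143, had 21, 19.2 and 24.8 CPM against 11.7, 23.5 and 21.5 CPM of RNA and a log2 fold change of -0.18 ± 0.26, with 1 Prps2null library below all others. Zfp664 had 70.8, 69.9 and 89.2 CPM against 62.4, 58.9 and 77.2 CPM and -0.21 ± 0.19. The others were Zfp128, Zfp938 and Zfp959, with log2 fold changes of -0.05 ± 0.32, -0.41 ± 0.38 and -0.24 ± 0.30. Zfp524 was counted 11 to 36 times in a library, its RNA was at 6.1, 5.86 and 2.7 CPM against 2.51, 2.17 and 2.6 CPM, and its log2 fold change of -1.01 ± 0.48 did not pass the threshold although the groups did not overlap.

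A group of 8 members lay within 1 stretch of chromosome 13, between 67038594 and 67827000 of GRCm38.p6, a stretch of 0.788 Mb with 25 protein-coding genes, of which 23 carry a Zfp symbol. In chromosomal order they were Zfp712, Zfp708, Zfp759, Zfp595, Zfp874a, Zfp87, Zfp748 and Zfp273. All 8 had a log2 fold change below 0, from -2.04 to -0.77 with a median of -1.57, and 7 passed the threshold, where 18.5% of all transcripts did in this direction. All came from lists made from the same difference, so this count is a description. Zfp712 RNA was at 9.76, 9.93 and 11.7 CPM against 4.34, 3 and 3.34 CPM, a log2 fold change of -1.56 ± 0.34. Zfp595 had 19.8, 26.5 and 21.9 CPM against 11.9, 11.8 and 8.72 CPM and -1.08 ± 0.24. Zfp748 had 26.8, 23.9 and 29.1 CPM against 6.63, 14.3 and 13.5 CPM and -1.19 ± 0.27. In each of these 3 the highest Prps2null library stayed under the lowest Eμ-Myc/+ library. Of Zfp273 there were 9.27, 8.31 and 12.6 CPM against 2.06, 5.34 and 2.41 CPM, a log2 fold change of -1.58 ± 0.41, and Zfp759 had 9.76, 7.17 and 10.1 CPM against 3.66, 6.34 and 5.56 CPM and -0.77 ± 0.35, the one that missed the threshold. In all 8 genes the Prps2null libraries lay below the Eμ-Myc/+ libraries without overlap. How reads that match several of these similar genes were assigned is not given in the sources used here, so the values of single genes in the cluster are uncertain, and this was not tested.

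**Figure D2:**
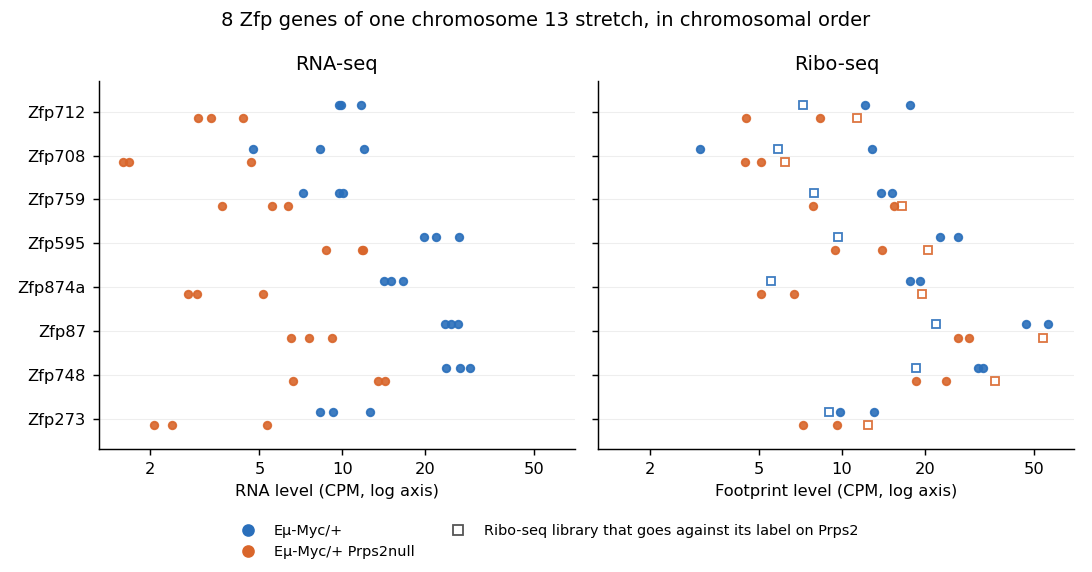
RNA (left) and footprint (right) levels of the 8 Zfp genes of the chromosome 13 stretch in chromosomal order, in CPM on log axes. Blue points are Eμ-Myc/+ and orange points Eμ-Myc/+ Prps2null libraries, and open squares mark the 2 Ribo-seq libraries that go against their labels on Prps2. In RNA all orange points of a gene lie to the left of all its blue points, while in footprints the groups overlap.

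Footprints of the cluster did not divide by label. Zfp874a footprints were at 17.7, 19.2 and 5.51 CPM against 5.05, 19.6 and 6.66 CPM, and those of Zfp87 at 56.1, 46.5 and 22 CPM against 26.4, 53.6 and 28.9 CPM. Zfp748 had 32.5, 31.3 and 18.6 CPM against 18.5, 36.1 and 23.9 CPM, and Zfp595 had 22.7, 26.3 and 9.64 CPM against 14, 20.6 and 9.44 CPM. In these 4 genes Eμ-Myc/+ replicates 1 and 2 and Prps2null replicate 2 were the high libraries and the other 3 were low. Zfp712 had 17.7, 12.1 and 7.23 CPM against 4.49, 11.3 and 8.33 CPM and Zfp273 9.85, 13.1 and 8.95 CPM against 9.55, 12.4 and 7.22 CPM, with smaller gaps. Zfp759 had 13.8, 15.2 and 7.92 CPM against 7.86, 16.5 and 15.5 CPM, with Prps2null replicate 3 among its high libraries. The median footprint log2 fold change of the 7 cluster members tested was -0.19 with all libraries and -0.89 without the 2 that go against their labels.

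The promoters of the cluster share letters. RefSeq promoters of build GRCm38.p6, from 250 bases before to 50 after the annotated start, were used for 43 members, among them the cluster genes other than Zfp87. The run TGGGAAATGTAGT of 13 bases stood in 6 of the 7, on the coding strand of each gene between positions -68 and -22 from the start, and in no other member, while 138 of 27025 genes with a promoter in the table (0.511%) and 32 of 336 Zfp genes held it on either strand. Read on the opposite strand it is a form of ACTACANTTCCCA, where N is any base, which as background is known from the binding site of Zfp143 and its relative Zfp523. The free base is the one at which Zfp748, the 1 cluster gene without the run, differs from it, so its match was built in. With N free and both strands searched, 8 of the 43 members held it, the 7 cluster genes and Zfp128, against 249 of 27025 genes (0.921%) and 46 of 336 Zfp genes. The sequences are shown because they line up over the run, which is in capitals.
Zfp712 (chr13:67061193-67061249, minus strand): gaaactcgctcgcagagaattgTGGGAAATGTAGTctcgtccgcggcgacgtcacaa
Zfp708 (chr13:67081564-67081620, minus strand): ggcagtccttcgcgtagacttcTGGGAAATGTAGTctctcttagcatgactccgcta
Zfp759 (chr13:67128153-67128209, plus strand): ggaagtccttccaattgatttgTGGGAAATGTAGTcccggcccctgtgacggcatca
Zfp595 (chr13:67332578-67332634, minus strand): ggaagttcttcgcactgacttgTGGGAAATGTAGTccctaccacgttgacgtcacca
Zfp874a (chr13:67451624-67451680, minus strand): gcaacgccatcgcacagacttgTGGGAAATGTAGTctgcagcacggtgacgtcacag
Zfp748 (chr13:67553145-67553201, minus strand): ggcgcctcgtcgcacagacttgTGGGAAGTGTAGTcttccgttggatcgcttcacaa
Zfp273 (chr13:67813726-67813782, plus strand): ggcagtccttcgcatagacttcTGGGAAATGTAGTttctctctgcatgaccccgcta
Zfp128 (chr7:12881139-12881195, plus strand): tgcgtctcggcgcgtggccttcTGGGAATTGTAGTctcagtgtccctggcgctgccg
A letter match is a description of these windows and says nothing of what is bound there. Zfp128, the holder outside the cluster, had an RNA log2 fold change of -0.05 ± 0.32, with overlapping groups, while all 7 holders inside it were without overlap. Zfp523 itself had overlapping RNA levels, as given above.

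The list raised at both levels gave 6 members, and they had the highest RNA log2 fold changes of the 54. Zfp518b (chr5:38668484-38684984) RNA was at 6.83, 3.91 and 4.51 CPM against 24.9, 20.5 and 15 CPM, a log2 fold change of 2.00 ± 0.31. Zfp182 had 3.42, 3.42 and 3.38 CPM against 10.7, 9.84 and 9.64 CPM, a log2 fold change of 1.56 ± 0.34. Zfp563 had 2.44, 3.42 and 2.48 CPM against 11, 4.5 and 8.16 CPM and 1.46 ± 0.44. In the 3 genes all Prps2null libraries were above all Eμ-Myc/+ libraries, and Zfp182 varied little within a genotype. Zfp775 had 5.61, 2.12 and 5.63 CPM against 13.3, 11.7 and 10.4 CPM, a log2 fold change of 1.43 ± 0.37. Zfp975 had 3.9, 12.2 and 11.9 CPM against 34, 18.5 and 19.5 CPM and 1.32 ± 0.35, and Zfp534 had 1.71, 3.26 and 4.06 CPM against 8.68, 7.01 and 4.64 CPM and 1.15 ± 0.44. These 3 also had no overlap, although Zfp534 rested on 7 to 42 counts and was the 1 member of the 6 that missed the threshold.

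Their footprints were few and did not divide by label. Zfp518b had 1, 0 and 46 counts against 24, 0 and 32 counts. Zfp182 had 1, 0 and 34 counts against 20, 1 and 22 counts, and Zfp775 had 0, 0 and 30 counts against 27, 0 and 13 counts. In all 3 genes Eμ-Myc/+ replicate 3 and Prps2null replicates 1 and 3 held nearly all footprints, and the other 3 libraries had 0 or 1, so that each label had a library on both sides. Zfp563 had 1, 1 and 13 counts against 7, 0 and 17 counts, Zfp534 1, 1 and 5 counts against 11, 0 and 4 counts and Zfp975 2, 3 and 14 counts against 16, 4 and 9 counts. For the first of these the same 3 libraries were high, and the last had a smaller spread. With labels kept, the footprint log2 fold changes were 0.73 ± 1.37 for Zfp518b, 0.75 ± 1.19 for Zfp182 and 0.87 ± 1.43 for Zfp775, all with an SE larger than the difference. Without the 2 libraries that go against their labels the comparison is of 0 or 1 counts against 13 to 32, and no fitted fold is given for so few counts.

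Zfp975 shares a promoter run with 3 members that were lower. The run GACCTGCCAGTCAGA, 15 bases long, stood in the promoters of Zfp932, Zfp950, Zfp973 and Zfp975, on 4 different chromosomes, and in 43 of 27025 genes (0.159%), of which 13 carry a Zfp symbol. The 4 windows are shown because the genes share letters well beyond the run in capitals and differed in the direction of their RNA. The window of Zfp950 crosses its annotated start.
Zfp973 (chr2:176670482-176670540, plus strand): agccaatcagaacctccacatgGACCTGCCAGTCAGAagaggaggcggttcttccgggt
Zfp932 (chr5:109996453-109996511, plus strand): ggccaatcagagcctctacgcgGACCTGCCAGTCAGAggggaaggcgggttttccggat
Zfp975 (chr7:42692774-42692832, minus strand): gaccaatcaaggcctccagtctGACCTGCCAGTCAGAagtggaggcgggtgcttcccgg
Zfp950 (chr19:61140816-61140874, minus strand): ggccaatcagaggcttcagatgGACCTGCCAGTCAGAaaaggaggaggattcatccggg
RNA log2 fold changes were -0.79 ± 0.35 for Zfp973, -0.75 ± 0.18 for Zfp932 and -0.87 ± 0.25 for Zfp950 but 1.32 ± 0.35 for Zfp975. Zfp973 RNA was at 7.32, 9.93 and 7.89 CPM against 6.17, 4.84 and 3.71 CPM and Zfp950 RNA at 26.8, 20.8 and 35.8 CPM against 16.4, 11.7 and 17.4 CPM, in neither case with overlap.

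The footprints of the members did not separate by label. Of the 46 members tested 0 passed edgeR's threshold, as did 0% of all 9031 transcripts, and 0 members had an unadjusted p under 0.05 against 47 of all transcripts, with 0 members by DESeq2 also. The median footprint log2 fold change was -0.07, with 26 members below and 20 above 0. The groups did not overlap for 1 tested member, Zfp637, which does not exceed the 4.62% of all transcripts without overlap in either direction. Zfp637 footprints were at 7.88, 8.08 and 9.64 CPM against 11.8, 18.6 and 11.1 CPM, on 8, 8 and 28 against 21, 18 and 20 counts. The footprint log2 fold change was 0.66 ± 0.39 by label and 0.52 ± 0.45 without the 2 libraries, and neither passed the threshold. Its RNA was lower in every Prps2null library. Zfp992, too thin to be tested, had 0.985, 1.01 and 3.79 CPM against 4.49, 7.22 and 10.5 CPM of footprints and 31.7, 31.3 and 28.2 CPM against 45.9, 37.5 and 36.2 CPM of RNA, higher in every Prps2null library in both. The 8 members with too few footprints for a test were Zfp128, Zfp524, Zfp534, Zfp563, Zfp708, Zfp973, Zfp975 and Zfp992.

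Without the 2 libraries that go against their labels, footprints of 8 members were lower, where 17.9% of all transcripts were. This count was near the background, and the genes below are given as a description. The median of the members was -0.41. The fit also put Zfp182, Zfp518b and Zfp775 higher, where 18% of all transcripts were, but these 3 had 0 or 1 counts in the Eμ-Myc/+ libraries left and passed the filter through the libraries where they were high, so they are not counted as changes. Zfp148 footprints were at 273, 262 and 125 CPM against 123, 262 and 112 CPM, a log2 fold change of -0.41 ± 0.42 by label and -1.18 ± 0.14 without the 2. Zfp654 had 145, 104 and 57.5 CPM against 59.5, 117 and 40 CPM, -0.51 ± 0.47 and -1.32 ± 0.22. Zfp516 had 77.8, 83.9 and 42.4 CPM against 44.4, 52.6 and 29.4 CPM, -0.68 ± 0.33 and -1.13 ± 0.23. In these genes, too, Eμ-Myc/+ replicate 3 sat with the lower and Prps2null replicate 2 with the higher libraries, less so for Zfp516. Zfp768 had 23.6, 19.2 and 7.23 CPM against 3.93, 21.7 and 10.5 CPM and a log2 fold change of -0.48 ± 0.70 by label and -1.55 ± 0.44 without the 2, and Zfp874a, Zfp87, Zfp369 and Zfp595 had -1.64 ± 0.42, -0.89 ± 0.25, -0.64 ± 0.18 and -1.05 ± 0.36 without them.

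Among the other named members footprint levels ran from even to uneven across the libraries. Zfp592 had 107, 107 and 110 CPM against 98.3, 116 and 82.2 CPM, and Zfp217 had 73.9, 93 and 86.4 CPM against 103, 93.9 and 92.7 CPM. Zfp932 had 52.2, 44.5 and 55.8 CPM against 53.9, 66 and 44.4 CPM, and Zfp296 had 55.2, 55.6 and 49.6 CPM against 44.9, 57.8 and 40 CPM. For these 4 genes the libraries lay close together, and without the 2 libraries the log2 fold changes were -0.25 ± 0.17, 0.23 ± 0.18, 0.03 ± 0.22 and -0.38 ± 0.22. Zfp574 had 76.8, 75.8 and 62.7 CPM against 69.6, 78.4 and 56.6 CPM, and Zfp622 had 95.5, 117 and 85.8 CPM against 68, 98 and 89.4 CPM. Zfp710 had 51.2, 40.4 and 29.6 CPM against 30.9, 52.6 and 29.4 CPM, and Zfp382 had 52.2, 46.5 and 30.3 CPM against 33.7, 65 and 33.9 CPM. By label and without the 2, the footprint log2 fold changes were -0.07 ± 0.19 and -0.27 ± 0.20 for Zfp574, -0.22 ± 0.21 and -0.43 ± 0.19 for Zfp622, -0.10 ± 0.32 and -0.60 ± 0.25 for Zfp710, and 0.04 ± 0.34 and -0.54 ± 0.23 for Zfp382. The last 2 had their highest level in Prps2null replicate 2 and were at 29.6 and 30.3 CPM in Eμ-Myc/+ replicate 3. Zfp523 had 7.88, 9.09 and 18.3 CPM against 15.7, 23.7 and 18.9 CPM, and Zfp367 had 28.6, 36.4 and 19.6 CPM against 23.6, 46.4 and 20.5 CPM. Zfp346 had 13.8, 11.1 and 8.27 CPM against 7.3, 12.4 and 11.1 CPM, Zfp763 had 23.6, 17.2 and 11 CPM against 10.7, 14.4 and 17.2 CPM, and Zfp974 had 9.85, 14.1 and 13.4 CPM against 14.6, 9.28 and 13.3 CPM. Zfp523 was lowest in Eμ-Myc/+ replicates 1 and 2, while Zfp367 was highest in Prps2null replicate 2, and the spread of the last 3 rested on 9 to 39 counts. Left without the 2 libraries, Zfp523 had a footprint log2 fold change of 1.02 ± 0.41 against 0.66 ± 0.41 by label, and Zfp367 had -0.55 ± 0.29 against 0.10 ± 0.39. Zfp524 had 6, 5 and 8 counts against 8, 6 and 12 counts, and Zfp708 had 13, 3 and 17 counts against 9, 6 and 8 counts, too few to order the libraries.

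**Figure D3:**
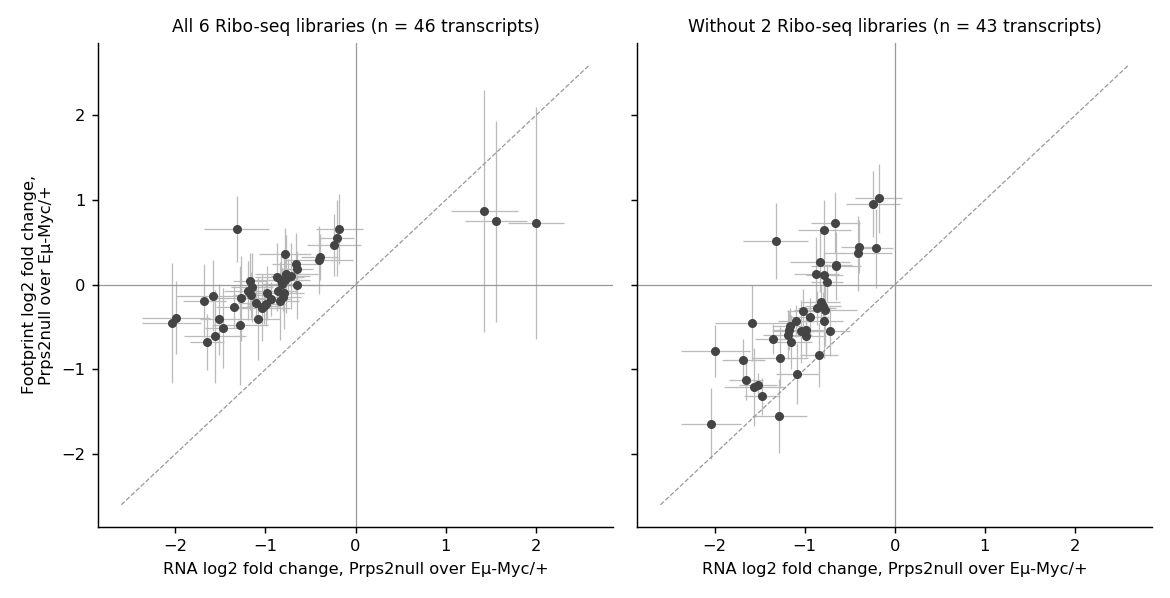
Footprint log2 fold change (y) against RNA log2 fold change (x) of the tested members, Prps2null over Eμ-Myc/+, with all 6 Ribo-seq libraries (left, 46 members) and without the 2 that go against their labels (right, 43 members, leaving out Zfp182, Zfp518b and Zfp775, which rest on 0 or 1 counts there). Bars are SE and the dashed line marks equal change. On the left most points lie near 0 in footprints and below 0 in RNA, and on the right they lie nearer the line.

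TE differences were positive for most members, and 42 of the 54 were listed for this very difference. The interaction of genotype and assay had a median of 0.84 against 0.28 over all 8987 transcripts tested, and 43 of the 46 members lay above 0. By edgeR 0 members passed the threshold, where 2.16% of all transcripts had raised and 0.0334% lowered TE, 24 members had an unadjusted p under 0.05 where 20.5% of all transcripts did, and DESeq2 called 3 where it called 5.92% of all. The highest value was that of Zfp637, 1.96 ± 0.50, then Zfp771 with 1.61 ± 0.64 and Zfp874a with 1.60 ± 0.77. The 3 below 0 were Zfp518b, Zfp182 and Zfp775 of the list raised at both levels. Without the 2 libraries the median was 0.66 against 0.34, 0 members passed the threshold where 3.62% of all transcripts did, and the values of Zfp637, Zfp771 and Zfp874a were 1.83 ± 0.57, 1.20 ± 0.54 and 0.39 ± 0.53. The 3 that lay below 0 then lay above it, 45 of 46 members in all, but on the 0 or 1 footprint counts given above, so their fitted values are no measure of TE.

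The footprint to RNA ratio, averaged over both genotypes, asks how many ribosomes the Zfp mRNAs carried for their RNA compared with other mRNAs. It does not use the difference between the genotypes, and both assays were counted on the same isoform of a gene. Whether RNA reads outside the coding sequence were counted is not given, so the ratio need not be ribosomes per coding RNA. How reads shared by similar Zfp genes were assigned is not given for either assay. The part of both in the ratio was not tested. On this measure the Zfp transcripts that passed the filter on low counts sat below the typical transcript. Scaled over all 12 libraries together, 20 of the 46 were low and 4 high at an adjusted p under 0.05, where 33.2% of all 8987 transcripts were low and 35% high. The median log2 ratio was -0.50, which is 0.54 lower than the median of all transcripts of 0.04, and the quartiles of the members were -0.99 and -0.02 relative to that median, against -0.77 and 0.71 for all transcripts. Without the 2 libraries 23 were low and 4 high, where 37.2% and 35.8% of all were, and the median stood 0.51 lower. Of the 23, 3 were again Zfp182, Zfp518b and Zfp775 with 0 or 1 Eμ-Myc/+ counts, whose ratios moved from -0.56 ± 0.55, -0.96 ± 0.62 and -1.01 ± 0.66 to -2.0 ± 0.46, -2.57 ± 0.51 and -4.00 ± 0.89, and 20 were left without them. Scaling within each assay or to library totals moved the median of all transcripts to 0.82 and 0.83, and with it the zero of the test, so that 8 members were low and 19 high by either, where 14.1% to 14.3% of all transcripts were low and 61.6% to 62.1% high, while the distance of members from that median stayed at -0.54. With the lymphoma as a block across its 2 libraries, 18 were low and 3 high, where 32.3% and 32.5% of all were. By all 4 scalings 8 members were low and 4 high, and the share of all transcripts so placed was not computed. The filter on low counts matters here as well: without it all 54 members entered with 25 low and 4 high, where 46.5% of all transcripts were low and 24.5% high, so that the low share was at the background, and the median log2 footprint to RNA ratio of members minus all was -0.08, with a median of all 13133 transcripts of -0.49.

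**Figure D4:**
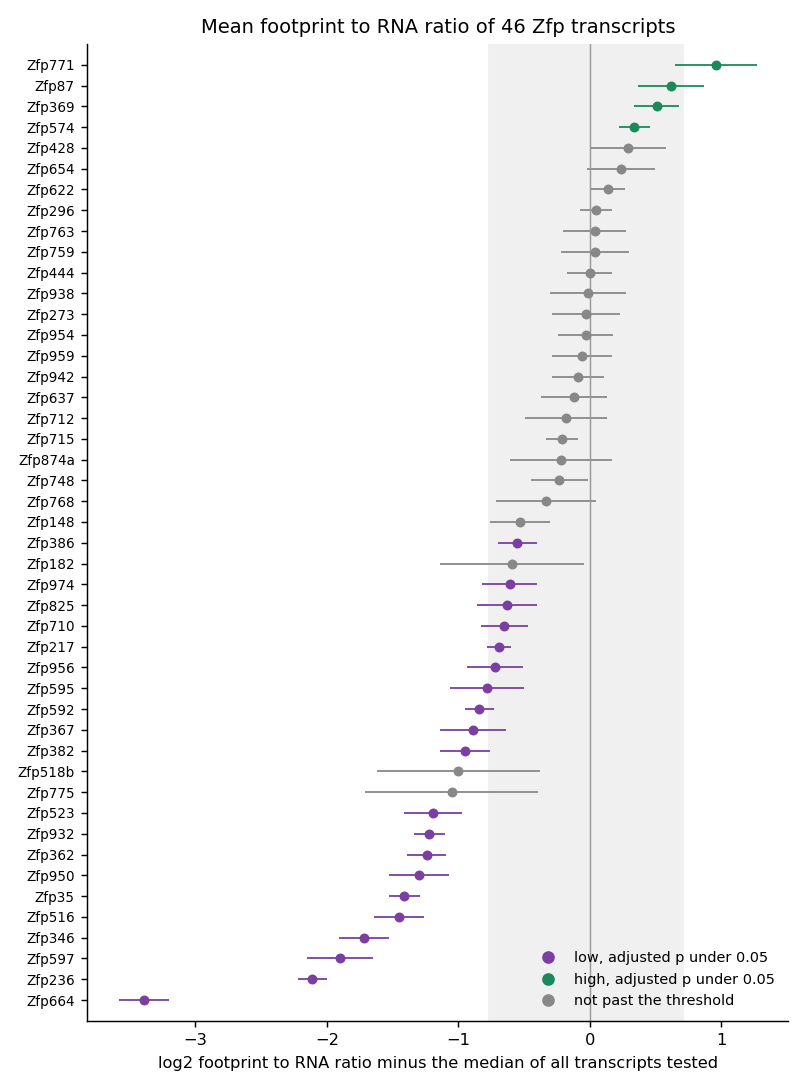
Mean log2 footprint to RNA ratio of the 46 tested members over both genotypes, relative to the median of 8987 transcripts (vertical line), with SE bars. Purple points passed the test as low and green points as high, grey points did not pass, and the shaded band runs between the quartiles of all transcripts, from -0.77 to 0.71. Zfp664 stands lowest at -3.39 and Zfp771 highest at 0.96.

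Zfp664 (chr5:124862705-124888630) was the lowest. Its RNA stood at 58.9 to 89.2 CPM in every library, as given above, while its footprints were at 5.91, 13.1 and 10.7 CPM against 9.55, 18.6 and 16.1 CPM. The mean log2 ratio was -3.35 ± 0.19, with an edgeR adjusted p of 3.27e-08. In each lymphoma the log2 ratio was -4.04, -3.04 and -3.69 against -3.79, -2.51 and -3.05, so that all 6 were far below 0. Zfp236 had 122, 133 and 130 CPM against 53.5, 67.9 and 67.9 CPM of RNA and 45.3, 38.4 and 37.5 CPM against 39.3, 34 and 28.3 CPM of footprints. Its log2 ratio was -2.07 ± 0.11 with an edgeR adjusted p of 2.54e-08. Zfp597 had footprints of 23.6, 15.2 and 10.7 CPM against 11.2, 21.7 and 10.5 CPM, a log2 ratio of -1.86 ± 0.25 and an edgeR adjusted p of 2.93e-05. Every lymphoma had a ratio below 0 for these genes as well. Without the 2 libraries the log2 ratios of Zfp664, Zfp236 and Zfp597 were -3.47 ± 0.20, -2.04 ± 0.13 and -1.87 ± 0.22.

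The other members low by all 4 scalings were Zfp346, Zfp516, Zfp35, Zfp362 and Zfp932. Their log2 ratios were -1.68 ± 0.19, -1.42 ± 0.19, -1.37 ± 0.12, -1.21 ± 0.15 and -1.18 ± 0.12, and the largest edgeR adjusted p of the 5 was 2.45e-05. In each of the 5 genes all 6 lymphomas lay below 0, and without the 2 libraries the values were -1.63 ± 0.20, -1.35 ± 0.14, -1.42 ± 0.14, -1.23 ± 0.14 and -1.29 ± 0.12. Zfp523 and Zfp950 lay in the same range with -1.15 ± 0.22 and -1.26 ± 0.23 (-1.51 ± 0.22 and -1.37 ± 0.26 without the 2 libraries), and passed with scaling over all 12 libraries and with TMM scaling. Neighbours in this order mostly lay within each other's SE, while Zfp664 stood more than 1 log2 unit below Zfp236.

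At the other end were Zfp771, Zfp87, Zfp369 and Zfp574. Zfp771 footprints were at 42.3, 39.4 and 16.5 CPM against 31.5, 25.8 and 16.1 CPM, its log2 ratio was 1.00 ± 0.31, and the edgeR adjusted p was 0.0116. Zfp87 had a log2 ratio of 0.65 ± 0.25 with an edgeR adjusted p of 0.0352, which was 0.0547 with the lymphoma as a block, so that this call was lost. Zfp369 had 59.3, 51.5 and 61.5 CPM against 26.3, 19.7 and 21.7 CPM of RNA and 123, 101 and 78.2 CPM against 68, 109 and 75.5 CPM of footprints, a log2 ratio of 0.55 ± 0.17 and an edgeR adjusted p of 0.0121. These 3 were the highest, and their ratios lay within their SE of each other or close to it. Zfp574 had a log2 ratio of 0.38 ± 0.12 with an edgeR adjusted p of 0.0163. With the 2 libraries left out the 4 stood at 1.15 ± 0.26, 0.65 ± 0.16, 0.53 ± 0.14 and 0.38 ± 0.13 in this order. Of the 4, 2 were left when Eμ-Myc/+ lymphoma 1 or 2 or Prps2null lymphoma 1 or 2 was left out, and Zfp87 was among those lost except without Prps2null lymphoma 1, where Zfp771 and Zfp574 were lost. By lymphoma the log2 ratio of Zfp771 was 0.57, 0.69 and -0.47 against 3.09, 1.86 and 0.46, lowest in Eμ-Myc/+ lymphoma 3 and highest in Prps2null lymphoma 1, where its RNA rested on 7 counts.

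**Figure D5:**
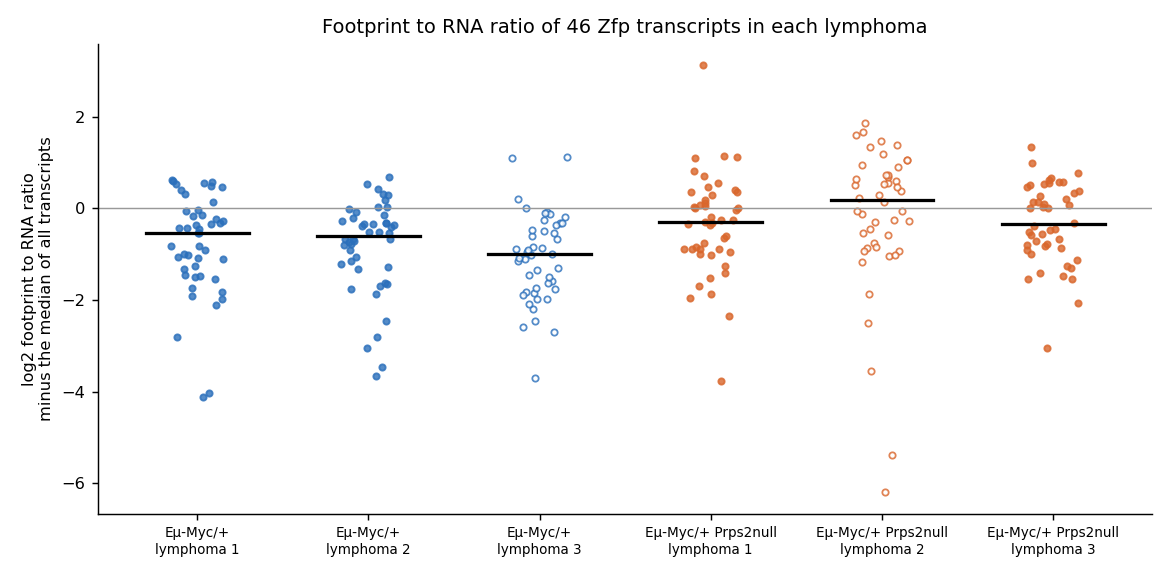
Log2 footprint to RNA ratio of the 46 members in each lymphoma relative to the median of all transcripts, with the median of the members as a black bar. Blue points are Eμ-Myc/+ and orange points Eμ-Myc/+ Prps2null lymphomas, and open points mark the lymphomas whose Ribo-seq library goes against its label on Prps2. The bars lie at -0.54, -0.60 and -1.0 and at -0.31, 0.18 and -0.35.

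Taken lymphoma by lymphoma, the members' median lay below that of all transcripts in 5 of 6. Relative to all transcripts it was -0.54, -0.60 and -1.0 in the Eμ-Myc/+ and -0.31, 0.18 and -0.35 in the Prps2null lymphomas. Below the median of all transcripts were 36, 38 and 42 of the 46 members in the first group and 30, 22 and 24 in the second. The lymphomas at both ends, Eμ-Myc/+ 3 and Prps2null 2, are those whose Ribo-seq library goes against its label. Each ratio pairs a Ribo-seq with an RNA-seq library by label and number, and whether that pairing holds for these lymphomas was not tested.

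The other lists show how far this is shared. The 1875 other tested names of the raised TE list had a median ratio 0.26 above that of all transcripts, with 496 low and 793 high, while the 37 tested Zfp members of the same list stood at -0.22 with 15 low and 4 high. The 15 Zfp members tested of the 5′ UTR list stood at -0.78 (-0.65 without the 2 libraries) with 10 low and 0 high, and the other 1558 names of that list at 0.35. Of 15 zinc finger genes with other symbols (Zbtb, Zkscan, Zscan and Zfhx), 14 were tested and stood at -0.56, with 5 low and 2 high, a low share near the 33.2% of all transcripts. Among these, Zfhx2 had a log2 ratio of -2.15 and Zbtb45 of 1.00. Co-repressors that work with KRAB proteins stood at 0.24: of 8 named genes 2 were low, Mbd3 and Mta1, and 4 high, Rbbp4, Hdac2, Trim28 and Mta2, with Trim28, the direct partner of the KRAB domain, at 0.86. When the 2 libraries were left out, the other names of the raised TE list stood at 0.27, its Zfp members at -0.22, the zinc finger genes with other symbols at -0.52 and the co-repressors at 0.35. The differences between lists were not tested.

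In RNA the neighbouring lists had the same direction as the Zfp members. All 8 co-repressors passed the threshold as lower in Prps2null, where 18.5% of all transcripts did (median -0.92 in log2 units, Trim28 -0.71), and all 15 other zinc finger genes lay below 0, 13 of them past the threshold, with a median of -1.32 and -2.56 for Zbtb20, a regulator of plasma cells. Of the 1956 other names tested from the raised TE list 1931 lay below 0 and 1662 passed the threshold as lower, with a median of -1.15. These lists were chosen by the same comparison, so that their directions are no independent result.

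The 5′ ends of 18 members could be read from the 5′ UTR list. A terminal oligopyrimidine (TOP) start, by which the translation of ribosomal protein mRNAs is tied to mTOR signalling, was taken as a C followed by at least 4 further pyrimidines. Of the 18 members 1 had it, Zfp524 (5.56%), against 56 of 1628 rows of the list (3.44%). The first 20 bases are shown for this gene and for 2 genes of low ratio, with the leading pyrimidines in capitals.
Zfp524: CCCCCTCTCTCCCgcccctt
Zfp664: CCaccacccccatcctcccg
Zfp597: ggtttccctgcagctactgc
Zfp524 was among the members with too few footprints to test, and Zfp664 and Zfp597 begin with a short run and with none.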

How the data were processed

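The samples were 3 lymphomas of each genotype, each read by RNA-seq and by Ribo-seq. For Ribo-seq the authors trimmed reads with cutadapt 2.3, removed duplicates by molecular identifiers and discarded reads of ribosomal and transfer RNA. They aligned the rest with Bowtie2 2.3.5 to 1 isoform a gene, that with the longest coding sequence. RNA-seq reads were aligned with Bowtie2 to the longest coding sequence, and the study's methods give none of the earlier steps for them. Footprint lengths were held to 23 to 32 nucleotides, with a correction of codon counts for stalled ribosomes. For RNA-seq the authors deposited raw counts, and for Ribo-seq they deposited expected counts, of which 54.3% were not whole and which were rounded here. The labels name mm10, whose RefSeq form GRCm38.p6 gave positions and promoters.

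Counts were tested over the whole table with edgeR 4.0.16 (quasi-likelihood, R 4.3.3, limma 3.58.1), with its default filter on low counts, size factors by the median of ratios taken separately for RNA-seq and Ribo-seq, and Benjamini-Hochberg adjustment. TE was the interaction of genotype and assay, and the footprint to RNA ratio was the mean of both genotypes scaled over all 12 libraries. The fits were tested on simulated data. Samples were grouped by their labels. Same-numbered samples are different lymphomas, so the replicate block was an alternative, as were TMM, library totals, DESeq2 1.42.0, other filters, a lymphoma block and leaving out lymphomas. Levels per length were not compared between genes, since coding lengths and protein sequences were not used here. Every member could be named. Values in each library were set for those of the list raised at both levels, those of the 5′ UTR list alone, the 5 largest falls and 3 largest rises in RNA, the 3 highest and 3 lowest ratios, and members with a role known as background, and others were named after their values were seen. Members and lists were chosen with earlier results of these data known, and the shared promoter runs were found by comparing the members. Replicates are labelled as biological, and p-values measure the spread between these samples.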

Additional observations from a re-analysis of the deposited data

How the results depend on the processing

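Leaving out 1 lymphoma at a time left 30 to 35 members lower and 4 to 6 higher in RNA, 0 changed in Ribo-seq, 0 changed in TE, and 17 to 20 with a low and 2 to 4 with a high footprint to RNA ratio. Of all 15009 to 15907 transcripts tested in RNA, 1887 to 3121 were then lower and 837 to 2363 higher. In Ribo-seq 0 of all transcripts changed. In TE 0 to 6 of all 8800 to 9435 transcripts tested were lower and 0 to 168 higher. For the ratio, 2707 to 3077 of all 8800 to 9435 transcripts tested were low and 2819 to 3107 high. Leaving out the 2 Ribo-seq libraries that go against their labels raised the members changed in Ribo-seq from 0 to 11 (8 without the 3 that rest on 0 or 1 counts). Of all transcripts 17.9% were then lower and 18% higher, so the 8, all lower, were near the background. DESeq2 raised the members changed in TE from 0 to 3, also near the 5.92% of all transcripts. Library totals and scaling within each assay each gave 8 members with a low and 19 with a high ratio, because both move the zero of the ratio. Without a filter on low counts the median log2 footprint to RNA ratio of members minus all moved from -0.54 to -0.08, with a median of all of -0.49. No paired block was called for by the labels: deviations of same-numbered lymphomas correlated at -0.22, -0.12 and 0.02 in RNA-seq, and at -0.62, 0.74 and 0.72 in Ribo-seq. The deviations were taken from the mean of each label, so the 2 Ribo-seq libraries that go against their labels enter the Ribo-seq values. Those correlations were not computed without them. The replicate block gave 34 members lower and 5 higher in RNA and 20 low and 4 high ratios, and changed none of these counts. For the ratio, however, Zfp825 lost its call (edgeR adjusted p 0.0504) and another member gained one. With this block 2359 of all 14682 transcripts were lower and 1633 higher in RNA. Of all 8987 transcripts 3013 had a low and 3059 a high ratio. A block for the lymphoma, which ties the RNA-seq to the Ribo-seq library of the same number and genotype, gave 18 low and 3 high ratios: Zfp87 (0.0547), Zfp825 (0.0889) and Zfp974 (0.0708) lost their call, and it changed no other.

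Of the 54 RNA log2 fold changes 50 kept their sign under all alternatives run. The exceptions were Zfp128 (0.22 with library totals, and -0.40 to 0.07 when 1 lymphoma was left out, above 0 without Eμ-Myc/+ replicate 3 or Prps2null replicate 2 or 3), Zfp523 (0.11 with library totals, and -0.39 to 0.05 when 1 lymphoma was left out, above 0 without Prps2null replicate 1), Zfp664 (0.07) and Zfp959 (0.04), the last 2 with library totals. Of the 24 called ratios 17 kept their sign. With library totals and with scaling within each assay alike, the others became 0.14 for Zfp217, 0.28 for Zfp386, 0.05 for Zfp595, 0.17 for Zfp710, 0.20 for Zfp825, 0.09 for Zfp956 and 0.22 for Zfp974. Scaling factors over all transcripts, an alternative chosen after seeing the data, gave 36 members lower and 5 higher in RNA. Of all 14682 transcripts 2888 were then lower and 1779 higher. Footprint counts of 18 to 48 for the median member limit what Ribo-seq can show.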
